A study of Oryctolagus cuniculus with 2 samples.

Results

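The nuclei described here are those that the authors both labelled as rods and placed in their cluster 2. They numbered 813 of the 6542 retinal nuclei of the series, or 12.4% (exact Clopper-Pearson 95% interval 11.6 to 13.3%). Of them, 437 came from the CLRN1 KO library of 3058 nuclei and 376 from the WT library of 3484 nuclei. The other rods used for comparison were the 3082 nuclei of clusters 0, 1 and 3. The other cell type was the 222 bipolar cells, all of cluster 6. The rod label also covered clusters 9, 10 and 16, which are not among the other rods meant below. The measurements were single-nucleus RNA-seq of rabbit retina, with nuclei from a 5 mm punch of the visual streak, the horizontal band of retina with the densest photoreceptors and ganglion cells. The CLRN1 KO group was 1 library from 3 pooled knockout rabbits, and the WT group was 1 library from 3 pooled wild-type rabbits, all aged 10 months. The deletion made in CLRN1, which encodes the membrane protein clarin-1 that is mutated in a form of Usher syndrome, was not given in the sources used here.

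Each genotype is 1 library from 1 pool of animals, so that effects of genotype, pool and library cannot be told apart, and no test between genotypes was made. The labels say that nuclei were traced back to animals with Vireo, from genetic variants; that tracing was not used here. The intervals below are exact Clopper-Pearson 95% intervals and cover counting error only, since nuclei of a library are not replicates. The libraries held 8233524 UMIs (unique molecular identifiers, each standing for 1 captured RNA molecule) in CLRN1 KO and 6916018 in WT. Between the libraries 5 barcodes occurred in both, and 3 nuclei of cluster 2 carried one of these. Clusters, labels, module scores and embedding all came from the same nuclei, so every contrast between cluster 2 and other nuclei is a description and carries no test. No gene could be named, because the counts used here carry neither gene nor nucleus names; the readouts are therefore UMIs, detected genes, the mitochondrial share and 9 module scores, each a relative level of an unlisted set of genes named for a cell type.

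Rods are the photoreceptors of dim light. They hold rhodopsin in stacked discs and pass their signal through transducin and a cGMP cascade, and their nuclei are small and compact. Cones serve daylight and colour with their own opsins and a parallel set of cascade proteins, and genes shared by rods and cones make up general photoreceptor lists. Bipolar cells are the interneurons that receive the signal of rods and cones, horizontal and amacrine cells modulate it, retinal ganglion cells send it to the brain, and Müller glia span and support all layers.

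Nuclei of cluster 2 made up 14.3% of the CLRN1 KO library (13.1 to 15.6%) and 10.8% of the WT library (9.78 to 11.9%). Of the rods alone they were 21.2% in CLRN1 KO (19.5 to 23.1%) and 16.8% in WT (15.3 to 18.4%). They carried more of the RNA than of the nuclei. Cluster 2 held 2645577 UMIs in CLRN1 KO, or 32.1% of that library, and 1813399 UMIs in WT, or 26.2%. Over both libraries it held 29.4% of all UMIs in 12.4% of nuclei, whereas the rods of clusters 0, 1 and 3 held 19.3% of UMIs in 47.1% of nuclei.

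Cluster 2 held most of the RNA-rich nuclei among the rods. In the CLRN1 KO library its nuclei had a median of 4798 UMIs, with quartiles of 2843 and 7872. In the WT library they had a median of 3190.5, with quartiles of 1879.5 and 5745.5. The rods of clusters 0, 1 and 3 had medians of 865 UMIs in CLRN1 KO and 761 in WT, and the bipolar cells 2725.5 in CLRN1 KO and 1941 in WT. Some other neurons were deeper still: ganglion cell cluster 7 had a median of 6458 UMIs over both libraries and horizontal cell cluster 20 one of 4267, against 3968 in cluster 2. The median of cluster 2 was thus 5.55 times that of the other rods in CLRN1 KO and 4.19 times in WT, and it was 1.76 times that of the bipolar cells in CLRN1 KO and 1.64 times in WT. Against single rod clusters over both libraries it was 5.98 times that of cluster 0, 3.86 times that of cluster 1 and 5.11 times that of cluster 3. Rod-labelled clusters 9, 10 and 16 lay between, with medians of 1979, 1478 and 2303.5 UMIs. Detected genes followed the same order, with a median of 2027 per nucleus in cluster 2, 566 in the other rods and 1208 in bipolar cells.

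**Figure D1:**
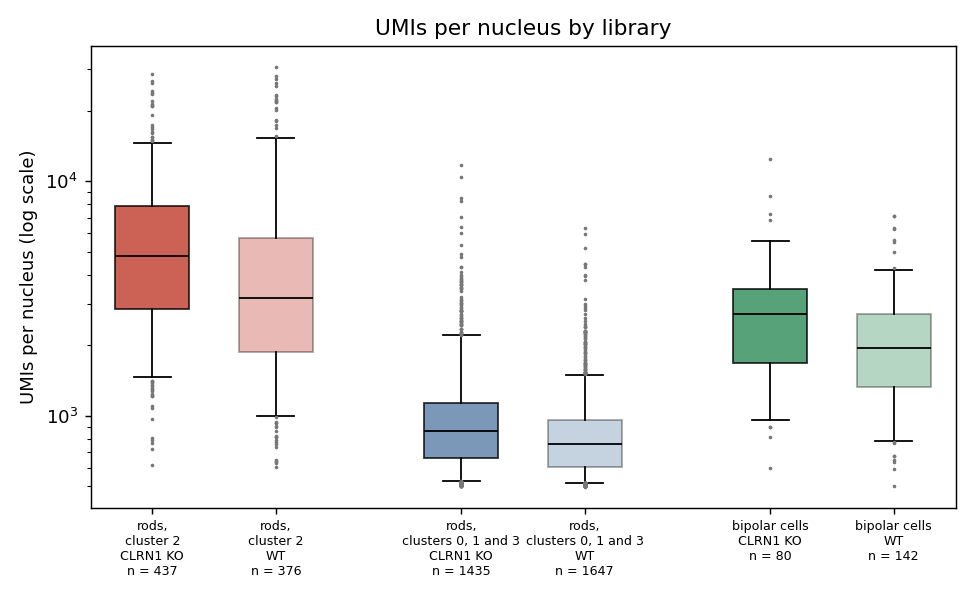
UMIs per nucleus on a log scale for rods of cluster 2, rods of clusters 0, 1 and 3, and bipolar cells, in the CLRN1 KO library (left box of each pair) and the WT library. Boxes span the quartiles with a line at the median, whiskers run from the 5th to the 95th percentile and points lie beyond them; the medians of cluster 2 were 4798 in CLRN1 KO and 3190.5 in WT.

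The deep end of the data lay largely in this cluster. Of the 248 nuclei in the series with 8000 UMIs or more, 160 were in cluster 2 (64.5%, 58.2 to 70.5%), and of the 145 with 10000 or more, 105 were (72.4%, 64.4 to 79.5%). Among rods of any cluster with 4000 UMIs or more, 404 of 437 belonged to cluster 2. Depth within the cluster still spanned 604 to 30726 UMIs, with 25 members under 1000 and 131 from 1000 to 1999. In the CLRN1 KO library 88.3% of the members had 2000 UMIs or more, against 72.1% in the WT library; in the other rods the shares were 6.27% in CLRN1 KO and 2.61% in WT. The filters on nuclei and the treatment of doublets (droplets with several nuclei) were not given in the sources used here, and no doublet caller was run because the counts could not be tied to nuclei. The part of doublets in the depth and in the mixed scores below was not tested.

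Genes per UMI, a measure of how varied the captured RNA is, was 0.50 in cluster 2, 0.704 in the other rods and 0.563 in bipolar cells before depth was taken into account. Within cluster 2 the value fell as UMIs increased, with a Spearman rho of −0.96 over its 813 nuclei; the measures share the UMI count, so this is a description. To compare nuclei of like depth, medians were set against each other within UMI ranges divided at 1000, 2000, 4000 and 8000, where each side had at least 10 nuclei. So matched, cluster 2 differed from the other rods by −0.014, and the sign changed with the matching: it was 0.011 in finer ranges and 0.031 between nearest nuclei. From bipolar cells it differed by 0.017 within the ranges, by 0.034 in CLRN1 KO and 0.0071 in WT alone, and by 0.037 between nearest nuclei. At like depth, then, the ratio differed from that of either group by less than before matching.

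Little of the RNA was mitochondrial. The median mitochondrial share in cluster 2 was 0.109% in CLRN1 KO and 0.085% in WT. Nuclei above 1% numbered 9 of 437 in CLRN1 KO (2.06%, 0.95 to 3.87%) and 4 of 376 in WT (1.06%, 0.29 to 2.70%). Over both libraries 1.60% of cluster 2 exceeded 1% (0.85 to 2.72%), against 7.30% of the other rods (6.41 to 8.28%) and 5.86% of bipolar cells (3.15 to 9.81%). The bipolar share differed by library, 11.2% in CLRN1 KO (5.28 to 20.3%) and 2.82% in WT (0.77 to 7.06%), and in WT its interval overlapped that of cluster 2. Among the 3 rod clusters compared, cluster 3 had 48.6% of its nuclei above 1%, cluster 0 had 3.13% and cluster 1 had 0.57%. At like depth over both libraries, however, the median of cluster 2 was above that of the other rods in 4 of 4 UMI ranges, by 0.025 percentage points. In CLRN1 KO alone it was lower from 1000 to 1999 UMIs, at 0.068% against 0.075%. Against bipolar cells it was lower in 4 of 4 ranges over both libraries, by 0.036 percentage points. Single libraries varied, with 0.096% in cluster 2 and 0.076% in bipolar cells of WT from 1000 to 1999 UMIs.

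The rod score was set beside the rod label. Both came from the same nuclei, so the score describes the members and does not check the label. The rod score was the highest of the 9 scores in 77.1% of cluster 2 (74.1 to 80.0%), with 86.0% in CLRN1 KO and 66.8% in WT. It was the highest in 91.8% of the other rods and 27.5% of bipolar cells. It was above 0 in 770 of the 813 nuclei. The median rod score was 1.00 in CLRN1 KO, with quartiles of 0.72 and 1.24, and 0.69 in WT, with quartiles of 0.38 and 0.95. The other rods had a median of 1.37 over both libraries, and clusters 0, 1 and 3 lay close together at 1.34, 1.41 and 1.34. Rod-labelled clusters 9, 10 and 16 lay below cluster 2, at −0.017, 0.15 and 0.039. The score was thus the leading one in most nuclei of cluster 2, at a lower level than in the other rods.

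The rod score was also lower at like depth. Matched on UMIs, the rod score of cluster 2 was 0.62 below that of the other rods, and it was lower in 4 of 4 UMI ranges. The gap shrank with each deeper range, from 0.80 under 1000 UMIs to 0.24 from 4000 to 7999, where there were 16 other rods. As ranges were weighted by the smaller group, the 0.62 rests mostly on nuclei under 4000 UMIs. Of the 813 members, 404 had 4000 UMIs or more. From cones it differed by 0.088 within the ranges, higher in 2 of 4, and by −0.20 between nearest nuclei. Between 2000 and 3999 UMIs the median was 0.79 in cluster 2 (253 nuclei), 1.34 in the other rods (113 nuclei), 0.87 in cones (77 nuclei), 0.32 in bipolar cells (103 nuclei) and −0.23 in amacrine cells (596 nuclei). Over both libraries the median in cluster 2 was 0.57 under 1000 UMIs, 0.68 from 1000, 0.79 from 2000, 0.90 from 4000 and 1.05 at 8000 or more, while CLRN1 KO nuclei were 6 of 25 members in the shallowest range and 107 of 160 in the deepest. Within a library the span was smaller, from 0.93 at 1000 to 1999 UMIs to 1.13 at 8000 or more in CLRN1 KO, and in WT 0.57, 0.55, 0.66, 0.72 and 0.83 over the 5 ranges. In amacrine cells, which do not use the rod genes, it went down over the ranges up to 7999 UMIs, to −0.45. Free rod RNA in droplets can reach any cell type, so the share with a rod score above 0 was also taken in amacrine and bipolar cells. Under 1000 UMIs it was 92.0% in cluster 2 and 87.5% in amacrine cells. From 1000 to 1999 UMIs it was 89.3% in cluster 2, 75.9% in bipolar cells and 57.2% in amacrine cells. From 2000 to 3999 UMIs it was 92.5% in cluster 2, 59.2% in bipolar cells and 26.2% in amacrine cells. The part of free RNA in the score of cluster 2 was not tested.

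**Figure D2:**
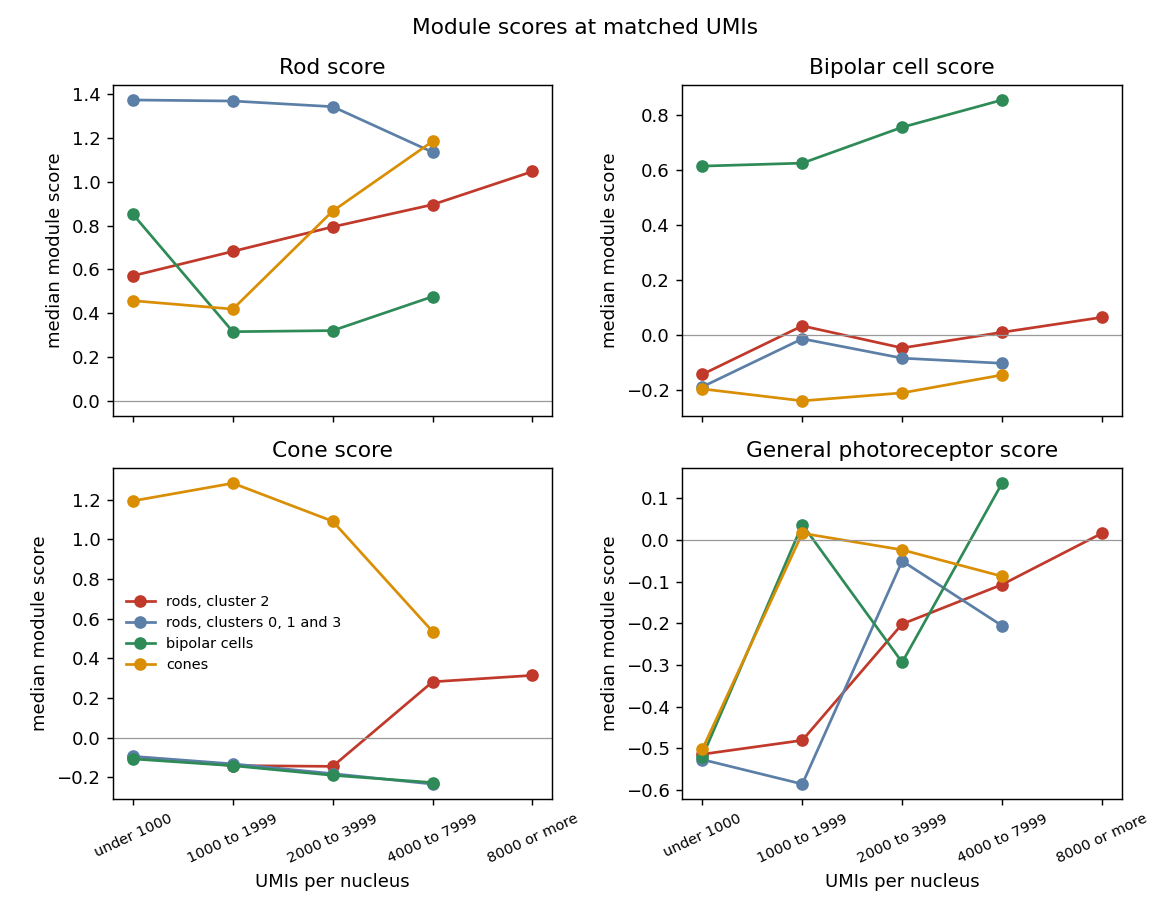
Median rod, bipolar cell, cone and general photoreceptor score (module score, relative level) by UMIs per nucleus, over both libraries, for rods of cluster 2, rods of clusters 0, 1 and 3, bipolar cells and cones; a point stands for at least 10 nuclei. The rod score of cluster 2 lay below that of the other rods in all 4 shared ranges. Its bipolar cell score was −0.14 under 1000 UMIs and −0.047 to 0.064 in the deeper ranges, while that of bipolar cells was 0.61 to 0.85.

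The bipolar cell score of cluster 2 was close to 0, with a median of 0.015 in CLRN1 KO and −0.016 in WT. The medians were −0.18 in the other rods and 0.71 in bipolar cells. At like depth cluster 2 was 0.047 above the other rods, higher in 4 of 4 ranges by 0.037 to 0.11; in WT alone the difference was 0.18 and with means 0.11. It was 0.73 below bipolar cells, lower in 4 of 4 ranges. A bipolar score above 0 occurred in 50.1% of cluster 2, but it was the highest of the 9 scores in 35 nuclei only (4.31%). The rod score set against bipolar cells was the reverse: cluster 2 was 0.37 higher at like depth and higher in 3 of 4 ranges, with 0.61 in CLRN1 KO alone, 0.21 in WT alone and 0.15 between nearest nuclei. In the range under 1000 UMIs it was 0.28 lower, with 25 nuclei of cluster 2 and 19 bipolar cells.

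The cone score of cluster 2 was higher in its deeper nuclei. Its median was 0.16 in CLRN1 KO and 0.094 in WT, against −0.10 in the other rods, −0.16 in bipolar cells and 1.10 in cones. Matched on UMIs, the cone score of cluster 2 differed from that of the other rods by only 0.039. It was higher in 2 of 4 ranges, with differences from −0.0088 to 0.52, and slightly lower in the ranges under 2000 UMIs. Between nearest nuclei over all depths the difference was 0.21. Over both libraries the medians from 2000 to 3999 UMIs were −0.14 in cluster 2 and −0.18 in the other rods. In WT alone they were 0.014 in cluster 2 and −0.19 in the other rods. From 4000 to 7999 UMIs the median of cluster 2 was 0.28, against −0.23 in 16 other rods and 0.54 in 30 cones. A cone score above 0 was found in 44.7% of cluster 2 from 2000 to 3999 UMIs (38.4 to 51.0%), against 17.7% of the other rods (11.2 to 26.0%), 21.4% of bipolar cells (13.9 to 30.5%) and 6.54% of amacrine cells. From 4000 to 7999 UMIs the shares were 75.8% in cluster 2, 18.8% in the 16 other rods, 31.6% in bipolar cells and 3.02% in amacrine cells. At 8000 UMIs or more it was 86.2% of cluster 2. Over the whole cluster the cone score increased with UMIs (Spearman rho 0.37 over 813 nuclei, 0.38 in CLRN1 KO and 0.37 in WT), a description over nuclei that share libraries. Against cones the score was lower in 4 of 4 ranges, with a weighted difference of −1.22, a difference of −0.67 between nearest nuclei, and one of −0.25 from 4000 to 7999 UMIs, the range with the smallest gap.

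The general photoreceptor score of cluster 2 had no steady difference from that of the other rods or of bipolar cells. Its median was −0.031 in CLRN1 KO and −0.27 in WT. Matched on UMIs it differed from the other rods by −0.0050 and from bipolar cells by −0.16, and the second difference changed sign under 4 of 9 other ways of computing it. The first ran from −0.18 in finer ranges to 0.41 without matching, with 0.099 in nuclei under 1% mitochondrial and 0.12 in the largest area that cluster 2 formed in the embedding. From cones cluster 2 differed by −0.30, lower in 4 of 4 ranges, and by −0.029 between nearest nuclei. The score was above 0 in 41.7% of cluster 2 and in 38.4% of the other rods.

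Rod, bipolar, cone and general photoreceptor scores were also read together in each nucleus. The limits were the lower quartile of each score in its own cells: 1.04 for the rod score and −0.64 for the general photoreceptor score in rods of clusters 0, 1 and 3, 0.40 for the bipolar score in bipolar cells, and 0.65 for the cone score in cones. By construction most of those cells pass their own limit. In cluster 2 the rod limit was passed by 45.5% of CLRN1 KO nuclei (40.8 to 50.3%) and 19.1% of WT nuclei, the bipolar limit by 11.2% of all members and the cone limit by 9.47%. The general photoreceptor limit was passed by 78.2% of the members, and it was passed together with the rod limit by 28.4% of cluster 2 and 56.0% of the other rods. Rod and bipolar limits were passed together by 15 nuclei, or 1.85% (1.04 to 3.02%), of which 13 were CLRN1 KO and 2 WT; the shares were 0.32% in the other rods and 6.76% in bipolar cells. Rod and cone limits were passed together by 26 nuclei (3.20%), against 0.49% of the other rods and 11.8% of cones.

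Many nuclei of cluster 2 passed none of the rod, bipolar and cone limits. This was so for 51.9% of its nuclei (48.4 to 55.4%), 40.5% in CLRN1 KO and 65.2% in WT, against 24.4% of the other rods, 17.6% of bipolar cells and 7.21% of cones. The limits were lower quartiles of the comparison groups' own scores. The shares of those groups were thus capped in advance and that of cluster 2 was not, so the contrast is only a description. From 2000 to 3999 UMIs the shares were 58.1% in cluster 2, 22.1% in the other rods and 12.6% in bipolar cells. With the looser limit of 0, chosen after seeing the data, rod, cone and bipolar scores were all above 0 in 28.7% of cluster 2 (25.6 to 31.9%), against 3.44% of the other rods, 14.9% of bipolar cells and 13.8% of cones. From 2000 to 3999 UMIs that triple share was 15.8% in cluster 2 (11.5 to 20.9%) and 14.6% in bipolar cells (8.39 to 22.9%), and these intervals overlapped. The other rods had 6.19% (2.53 to 12.3%), an interval that also overlapped that of cluster 2. Within the cluster the Spearman rho of the rod score with the bipolar score was −0.09, with −0.16 in CLRN1 KO and −0.058 in WT. With the cone score it was 0.14, with 0.21 in CLRN1 KO and 0.036 in WT. These are descriptions over 813 nuclei.

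Scores of the inner retina and glia were low in the median and above 0 in part of the nuclei. Medians over both libraries were −0.089 for the horizontal cell score, −0.13 for the amacrine score, −0.10 for the retinal ganglion cell score, −0.11 for the Müller glia score and −0.0026 for the microglia score. From 2000 to 3999 UMIs a horizontal score above 0 occurred in 22.1% of cluster 2, 3.54% of the other rods and 53.4% of bipolar cells. In the same range the amacrine score was above 0 in 27.7% of cluster 2, 7.96% of the other rods and 13.6% of bipolar cells, and the Müller glia score in 41.5% of cluster 2, 20.4% of the other rods and 23.3% of bipolar cells. Taking the cone, bipolar, horizontal, amacrine, ganglion cell and Müller glia scores together, 62.1% of cluster 2 from 2000 to 3999 UMIs had at least 2 of the 6 above 0, against 21.2% of the other rods, 77.7% of bipolar cells and 61.6% of amacrine cells, whose own score is among the 6, as is that of bipolar cells. The microglia score was above 0 in 14 of 813 nuclei (1.72%, 0.94 to 2.87%), against 12 of 3082 other rods (0.39%, 0.20 to 0.68%). From 2000 to 3999 UMIs the order was the reverse, with 0.40% in cluster 2 and 1.77% in the other rods. At 8000 UMIs or more it was 5.62% in cluster 2. The ganglion cell score was above 0 in 12.1%, close to the 11.3% of the other rods.

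**Figure D3:**
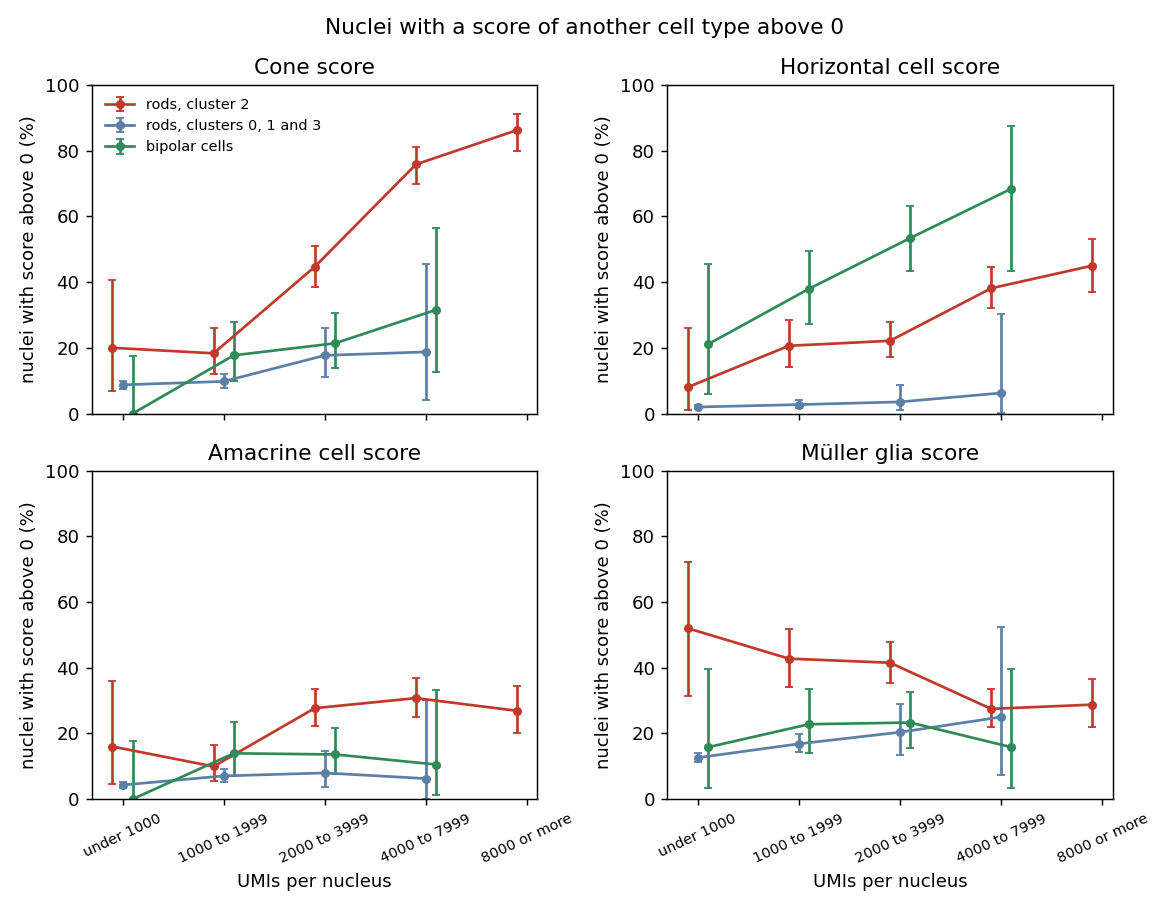
Share of nuclei (%) with a cone, horizontal cell, amacrine cell or Müller glia score above 0, by UMIs per nucleus, over both libraries; bars are exact Clopper-Pearson 95% intervals for counting error only. The cone share of cluster 2 was 44.7% from 2000 to 3999 UMIs and 86.2% at 8000 or more, while its Müller glia share was 52.0% under 1000 UMIs and 28.7% at 8000 or more, with 19.6% in CLRN1 KO and 47.2% in WT at that depth.

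The authors' embedding is a flat map in which nuclei with like expression lie near each other in arbitrary units. In it, cluster 2 lay away from rod clusters 0, 1 and 3. The median position of bipolar cluster 6 was 2.65 units from that of cluster 2, the nearest of all clusters. The rod clusters 1, 0 and 3 lay 11.7, 14.2 and 14.7 units away. Rod-labelled clusters 9, 16 and 10 lay nearer than these, at 6.21, 9.67 and 10.9 units. Of the 15 nearest nuclei of each member, 89.2% were in cluster 2, 5.14% in amacrine clusters, 2.51% in the bipolar cluster and 0.451% in rod clusters 0, 1 and 3. Rod-labelled clusters 9 and 10 held 0.656% and 0.615%. Distances in such a map are not measures of expression, and no source used here says whether the libraries were integrated before it was made.

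**Figure D4:**
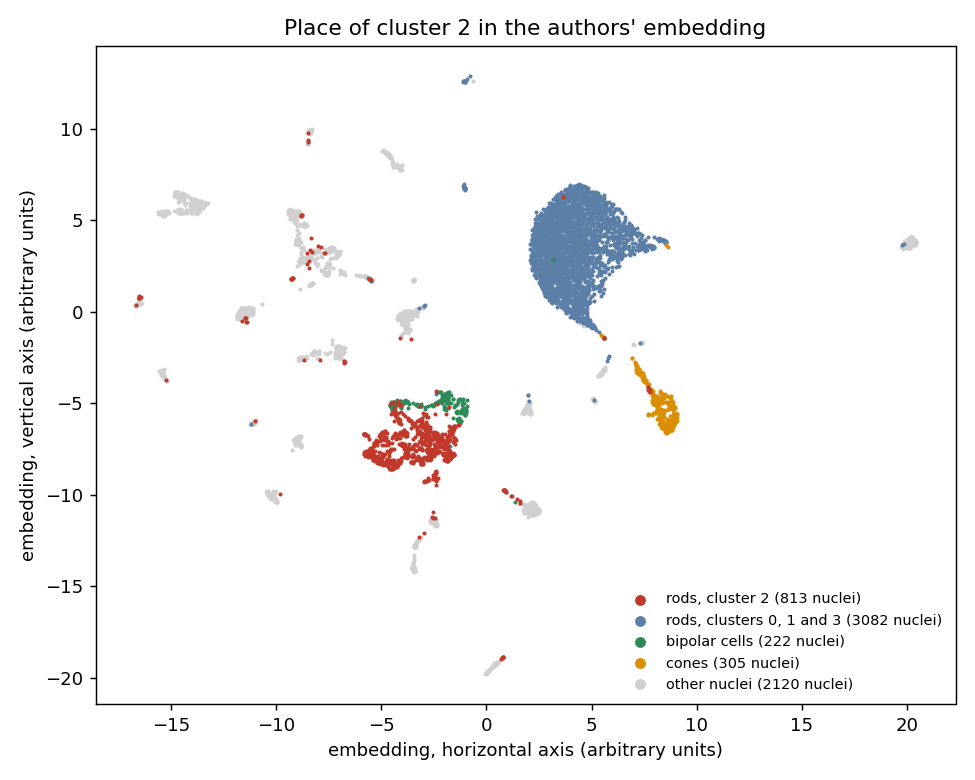
Position of each nucleus in the authors' embedding (both axes in arbitrary units), with rods of cluster 2, rods of clusters 0, 1 and 3, bipolar cells, cones and other nuclei in separate colours. Most of cluster 2 lay in 1 area beside the bipolar cells, 2.65 units away from median to median, and 96 of its 813 nuclei lay in smaller groups elsewhere.

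Cluster 2 was not 1 continuous area. When nuclei within 1 unit of each other were joined, a rule chosen after seeing the data, 717 members formed the largest area and 96 lay in 18 smaller ones. The outlying nuclei were 57 of 437 in CLRN1 KO (13.0%, 10.0 to 16.6%) and 39 of 376 in WT (10.4%, 7.48 to 13.9%). Of the 96, 67 lay nearest to amacrine clusters, 17 nearest to rod-labelled nuclei of any other cluster, 7 beside cones, 3 beside horizontal cells and 2 beside Müller glia. The 67 beside amacrine clusters had an amacrine score above 0 in 71.6% (59.3 to 82.0%), against 21.2% of the largest area (18.3 to 24.4%), and their median rod score was 0.81. The 7 beside cones, all CLRN1 KO, had a median cone score of 0.49 and a rod score of 0.99. In the largest area the median rod score was 0.87, the amacrine score −0.13 and the cone score 0.14. Whether these droplets held several nuclei was not tested.

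Across the largest area the values changed with position. Its 717 nuclei were put into 4 groups of about equal size by their place on the horizontal axis. From left to right the median UMIs were 2015, 3021, 5977 and 7112, and the share with a cone score above 0 was 13.3%, 49.2%, 79.3% and 92.2%. The median rod score was 0.58, 0.83, 0.73 and 1.19. The bipolar score was highest in the group with 5977 UMIs, at 0.17, and between −0.044 and −0.0080 in the other groups. That maximum was one of the CLRN1 KO library, with 0.29 in CLRN1 KO and 0.044 in WT; in WT the rightmost group was highest, at 0.072. The Müller glia score was above 0 in the median only in the leftmost and shallowest group, at 0.10, and from −0.14 to −0.099 elsewhere. The CLRN1 KO share of the nuclei was 52.8%, 33.5%, 49.7% and 76.0%. Position and depth moved together, the libraries were unevenly spread, and their separate parts were not tested.

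Between the libraries, the nuclei of cluster 2 had a higher rod score in CLRN1 KO than in WT. The medians were 0.93 in CLRN1 KO and 0.55 in WT from 1000 to 1999 UMIs, and 0.94 in CLRN1 KO and 0.66 in WT from 2000 to 3999. From 4000 to 7999 UMIs they were 1.01 in CLRN1 KO and 0.72 in WT, and at 8000 or more 1.13 in CLRN1 KO and 0.83 in WT. Weighted over these ranges the difference was 0.30, and CLRN1 KO was higher in 4 of 4. The other rods showed the same direction, with a CLRN1 KO minus WT difference of 0.16 and CLRN1 KO higher in 3 of 3 ranges. The difference between the differences was not tested.

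**Figure D5:**
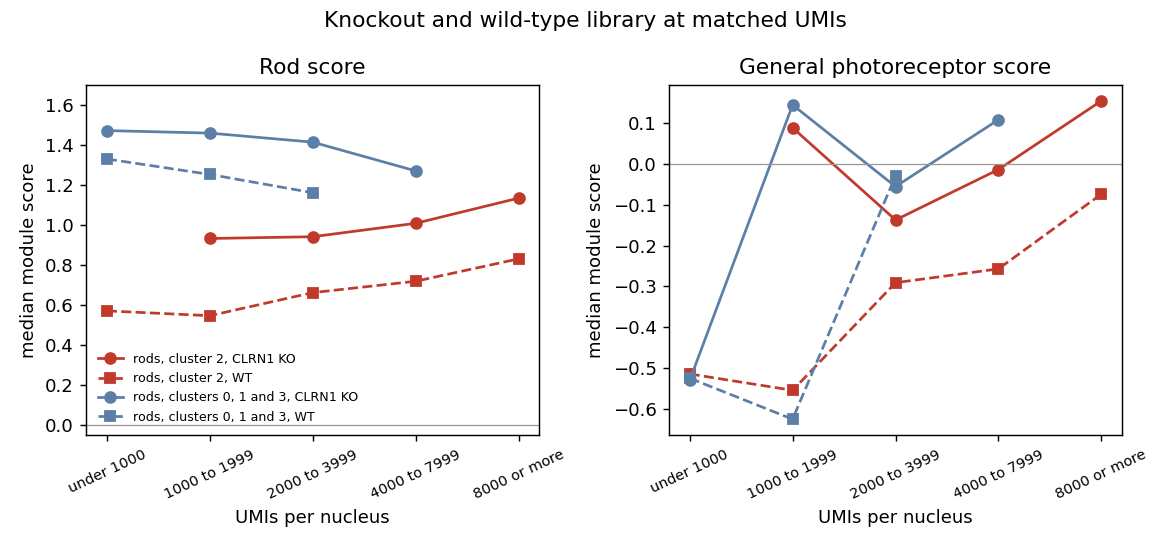
Median rod score and general photoreceptor score (module score, relative level) by UMIs per nucleus in rods of cluster 2 and rods of clusters 0, 1 and 3, with CLRN1 KO as circles on solid lines and WT as squares on dashed lines; a point stands for at least 10 nuclei. In cluster 2 the rod score of CLRN1 KO lay 0.28 to 0.39 above that of WT in each of the 4 shared ranges.

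The general photoreceptor score of cluster 2 was also higher in CLRN1 KO, by 0.26 at like depth and in 4 of 4 ranges, by 0.15 to 0.64. The widest gap was from 1000 to 1999 UMIs, with medians of 0.088 in CLRN1 KO and −0.55 in WT. In that range the score was above 0 in 55.6% of CLRN1 KO and 44.2% of WT nuclei. The CLRN1 KO minus WT difference in this score was 0.19 in the other rods, with CLRN1 KO higher in 1 of 3 ranges, and 0.54 in cones, with CLRN1 KO higher in 2 of 2. The cone score differed by −0.075 at like depth, with CLRN1 KO higher in 1 of 4 ranges, and by 0.066 before matching. The bipolar score differed by 0.025. Differences in the horizontal, amacrine, ganglion cell, Müller glia and microglia scores lay between −0.019 and 0.0090 at like depth. Median UMIs of cluster 2 were 1.50 times as high in CLRN1 KO as in WT, against 1.14 times in the other rods, 1.40 times in bipolar cells and 1.52 times in cones.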

How the data were processed

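Nuclei of frozen retina were captured with the 3' droplet chemistry of 10x Genomics, 1 library for each genotype. The tools in the submitters' processing notes are Seurat 4.3.0, Cell Ranger 7.0 and DESeq2 1.38.0, with the build OryCun2.0 and no roles stated. The deposited UMI and gene counts per nucleus are whole numbers. The mitochondrial value was deposited by the authors as a percent of each nucleus's UMIs. The 9 module scores are the authors' deposited score columns, whose names have the form that Seurat writes; the gene lists behind them and the filters on nuclei were not given in the sources used here. Cell types, clusters and embedding were taken as deposited. Libraries were assigned by the authors' library names.

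The count matrix as analysed here has numbers in place of names, so its 6542 columns were not used, no gene was named and no doublet caller or thinning of counts was run. The rule for named genes would have taken the 10 highest and 10 lowest genes of cluster 2 against clusters 0, 1 and 3, and the marker lists would have checked the label; neither could be applied, and the 9 scores were described instead. Medians were compared within 5 UMI ranges (edges 1000, 2000, 4000 and 8000, at least 10 nuclei a side, weighted by the smaller number), with finer ranges of 0.25 on the log2 scale and nearest nuclei within 5% as alternatives. How well the matching recovers small differences in these scores was not tested. Members and comparisons were chosen with earlier results of these data known. Python 3.11.15, pandas 2.3.3, numpy 2.4.6 and SciPy 1.17.1 were used.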

Additional observations from a re-analysis of the deposited data

Results flagged for a closer look

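The CLRN1 KO and WT shares of nuclei moved in opposite directions among the rod clusters. The log2 ratio of the CLRN1 KO share over the WT share was 0.41 in cluster 2, from 14.3% of nuclei in CLRN1 KO and 10.8% in WT. It was −0.50 in cluster 0, from 18.8% in CLRN1 KO and 26.5% in WT, and −0.55 in cluster 3, from 4.32% in CLRN1 KO and 6.31% in WT. Cluster 1 had 0.72, in the direction of cluster 2. Each ratio rests on 1 library per genotype, and the difference between clusters was not tested. Shares of a library also add up to a whole, so they do not move independently.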

How the results depend on the processing

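For 38 results, 278 alternative values were computed; 30 of them had the opposite sign to the value as reported. For 11 of these the reported value was further from 0 than a spread set for it. In score contrasts with other cells that spread was the same for either compared group, so it leaves out the spread of that group. The other 19 belong to values near 0. Among them were the general photoreceptor score against the other rods (0.41 unmatched, 0.099 under 1% mitochondrial, 0.12 in the largest area) and the horizontal and amacrine scores against those rods (0.080 and 0.036 with means). The amacrine score of CLRN1 KO minus WT (−0.029 unmatched) was another. The log2 ratio of CLRN1 KO over WT shares stayed between 0.25 and 0.41 in 7 of 7 alternatives, and the CLRN1 KO minus WT rod score between 0.25 and 0.33 in 6 of 6. Single shares depended on which nuclei were counted. In CLRN1 KO they ran from 12.4% with the largest area alone to 30.4% with rods outside cluster 2 left out of the denominator. In WT they ran from 9.67% with the largest area alone to 24.3% among nuclei with 2000 UMIs or more. The UMI ratio to the other rods was 5.79 with means, 5.55 in CLRN1 KO and 4.19 in WT, and that to bipolar cells 2.24 with means and 1.64 in WT. Genes per UMI against the other rods was −0.204 unmatched, 0.011 in finer ranges, 0.031 between nearest nuclei, 0.0061 in CLRN1 KO and −0.032 in WT; against bipolar cells it was −0.063 unmatched. The rod score against the other rods was −0.50 unmatched, −0.43 between nearest nuclei, −0.48 in CLRN1 KO and −0.66 in WT; the cone score was 0.23 unmatched, 0.21 between nearest nuclei and 0.12 with means. The bipolar score against the other rods was 0.18 unmatched and in WT, 0.072 between nearest nuclei and 0.11 with means. Against bipolar cells, the rod score was 0.48 unmatched, 0.47 in finer ranges, 0.15 between nearest nuclei, 0.61 in CLRN1 KO and 0.21 in WT, and the bipolar score −0.66 between nearest nuclei, −0.79 in CLRN1 KO and −0.68 in WT. The general photoreceptor score against bipolar cells turned to 0.15 unmatched, 0.036 in finer ranges, 0.25 in CLRN1 KO and 0.032 with means. Unmatched, the Müller glia score against the other rods was −0.0058, the microglia score against bipolar cells −0.00011, and the cone score of CLRN1 KO minus WT 0.066. Nuclei over a mitochondrial limit of 0.5% were 6.15%. The share past both rod and bipolar limits was 0.369% with limits at the medians and 48.1% with limits at 0. The causes were not tested. No paired analysis was possible because each genotype is 1 library, and no replicate could be left out. Use of the largest area alone, of limits at 0, of cones and of barcodes found in 1 library only was chosen after seeing the data. Few other rods were as deep as cluster 2: 16 from 4000 to 7999 UMIs and 4 above, so that no comparison with them was made at 8000 UMIs or more.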
